A study of Mus musculus with 2 samples.

Results

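Genes that mark the cells of blood vessel walls in the brain were examined on the 2 cortex arrays of a study of P4H-TM, a prolyl 4-hydroxylase anchored in a membrane. The 38 genes comprise 24 known for endothelial cells and 14 known for mural cells, the pericytes and smooth muscle cells that surround the endothelium. They were taken from knowledge of these cell types, by gene name, with earlier results of these data known, and no measured value entered the rule. A gene's value was read from its brightest probe set, taken over both arrays, among those annotated to that symbol alone, which gave a value for 37 of the 38 members among 18193 genes in all. Ly6c1 had no such probe set and is not described further.

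P4H-TM KO tissue came from male mice lacking P4h-tm, and WT tissue from their littermates. All were untreated C57BL/6J animals aged 2.5 months. Cortical RNA of 4 mice was pooled on 1 array for each genotype, so the differences cannot be set against variation between animals, and neither a p-value nor an SD between mice is given. In this bulk tissue, fewer cells of a type and less RNA per cell cannot be told apart. Values are log2 expression as deposited by the authors, and each difference is P4H-TM KO minus WT on that scale. P4htm itself had a value of 9.10 in P4H-TM KO and 11.05 in WT, a difference of −1.95, with −1.64 on its other probe set. Whether either probe set falls in the disrupted sequence was not tested. All 9 measured markers of cortical excitatory neurons lay above the median signal of all probe sets, 6.385, with a median difference of 0.03. Of 13 measured markers of the choroid plexus epithelium, P4H-TM KO had higher values by 1.5-fold or more for 12.

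Brain endothelial cells form the blood-brain barrier. Tight junctions seal the gaps between them, and pumps and carriers in their membranes select what enters and leaves the tissue. Pericytes sit on capillaries and stabilize the barrier, whereas smooth muscle cells around arterioles carry a contractile apparatus of actin, myosin and tropomyosin that sets vessel diameter. Endothelial cells recruit mural cells by secreting PDGF-B, which binds the receptor encoded by Pdgfrb. P4H-TM can hydroxylate hypoxia-inducible factor, which drives vessel growth through VEGF.

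Promoters of the members with the largest differences are shown because genes of the contractile apparatus are classical targets of serum response factor, which binds the CArG box. Sequences are from RefSeq (GRCm38.p6) and run from 250 bases before to 50 after a transcription start. CArG boxes were searched with up to 1 G or C among the 6 central A or T bases. The motif reads the same on both strands, and overlapping matches were allowed. Capitals mark the matches. Acta2 (smooth muscle actin) lies at chr19:34255324-34255623 on the minus strand, Tpm2 (a tropomyosin) at chr4:43523505-43523804 on the minus strand, and Slco1c1 (a thyroxine carrier) at chr6:141524104-141524403 on the plus strand.
Acta2: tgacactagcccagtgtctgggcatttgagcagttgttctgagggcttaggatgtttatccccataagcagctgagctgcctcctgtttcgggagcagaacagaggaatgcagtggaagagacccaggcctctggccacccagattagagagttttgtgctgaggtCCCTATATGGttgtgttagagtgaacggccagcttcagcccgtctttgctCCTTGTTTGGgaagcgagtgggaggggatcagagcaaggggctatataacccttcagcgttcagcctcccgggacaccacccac
Tpm2: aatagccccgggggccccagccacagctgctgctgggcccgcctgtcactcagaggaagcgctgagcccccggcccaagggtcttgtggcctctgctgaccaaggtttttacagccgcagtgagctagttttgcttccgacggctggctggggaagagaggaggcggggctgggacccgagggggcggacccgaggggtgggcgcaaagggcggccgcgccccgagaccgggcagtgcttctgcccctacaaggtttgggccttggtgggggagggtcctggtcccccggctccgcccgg
Slco1c1: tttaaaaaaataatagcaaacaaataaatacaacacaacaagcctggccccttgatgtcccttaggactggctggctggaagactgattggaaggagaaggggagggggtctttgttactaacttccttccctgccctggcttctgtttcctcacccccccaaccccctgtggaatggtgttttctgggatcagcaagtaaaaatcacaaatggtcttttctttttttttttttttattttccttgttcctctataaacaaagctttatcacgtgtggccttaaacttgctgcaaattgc
The Acta2 window held 2 such boxes, CCCTATATGG beginning 84 bases before the start and CCTTGTTTGG beginning 34 bases before it, each with 1 G or C in its centre. These distances count from the start that defines the window. Whether that start is the one used in vessel walls was not tested. No match was found in the Tpm2 or Slco1c1 window. Among the mural members 9 had a promoter in the table, and Acta2 was the only one with a match. Tagln and Myh11, which also had some of the larger differences, were not searched. Among the endothelial members, 6 of 25 promoters of 17 genes held one, in Ocln, Kdr, Tek, Eng, Slco1a4 and Egfl7. Among all 32851 promoters in the table, 9.98% held a match and 1.63% a box without any G or C in its centre. The matches are a description of letters.

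Of the 37 measured members, 26 were higher in P4H-TM KO, 7 were lower and 4 were equal to WT. Thus 70.3% of the members were higher and 18.9% lower, against 46.0% and 49.0% of all genes. The filter on signal made little difference to the share of members that were higher, but it raised that of all genes. In P4H-TM KO 23 of the 33 members above the median signal were higher, or 69.7%, where 50.1% of all genes above that signal were. Acta2 and Tpm2 were the members that reached 1.5-fold in P4H-TM KO over WT, as was the case for 0.610% of all genes. No member was at least 1.5-fold lower, as 0.148% of all genes were. At a log2 difference of 0.32, 5 members were higher and 0 lower, against 2.62% and 2.72% of all genes. The median difference was 0.07 over all measured members and 0.00 over all genes. Most differences were small, with 21 members at 0.1 or less in either direction. Between probe sets of the same gene the differences varied with a pooled SD of 0.147 (9010 genes), or 0.101 (5101 genes) when only probe sets above the median signal were used. This spread describes 1 pair of arrays and not the variation between mice.

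**Figure D1:**
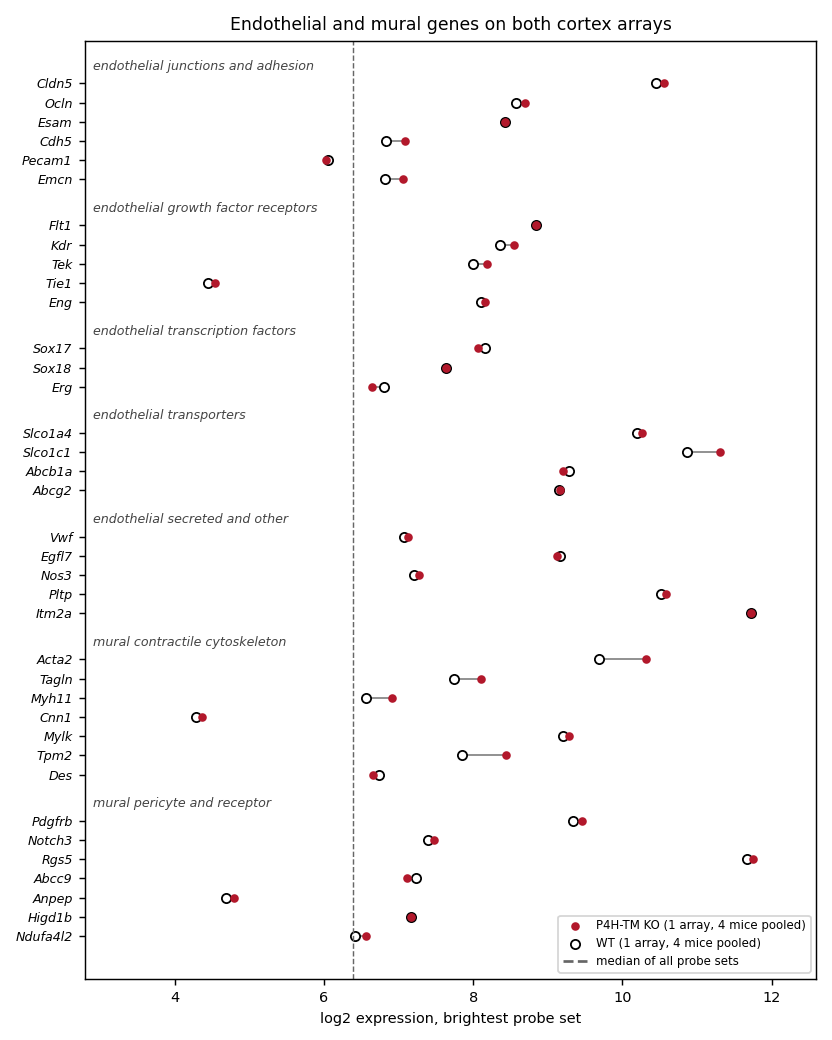
Log2 expression (horizontal axis) of each measured member on its brightest probe set, in P4H-TM KO (red points) and WT (open circles), grouped by role, with 1 array of 4 pooled mice per genotype and hence no error bars. The dashed line is the median of all probe sets; the longest lines between the points belong to Acta2, Tpm2 and Slco1c1, and most other pairs overlap or nearly touch.

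Endothelial junction and adhesion genes had a median difference of 0.11. Values were higher in P4H-TM KO for 5 of 6, against 46.0% of all genes. Cdh5, which encodes the adherens junction protein VE-cadherin, had 7.08 in P4H-TM KO and 6.83 in WT, a difference of 0.25. Its dimmer probe set, below the median signal, had 3.93 in P4H-TM KO and 4.21 in WT, so the probe sets of Cdh5 differed in opposite directions and averaged −0.015. Emcn (endomucin, a sialomucin of capillary and venous endothelium) had 7.06 in P4H-TM KO and 6.82 in WT on its single probe set. For Cldn5, the main claudin of the blood-brain barrier, the values were 10.56 in P4H-TM KO and 10.45 in WT. Occludin (Ocln) had the same difference, 0.11, with 0.18 on its other probe set. Esam, an adhesion molecule of endothelial tight junctions, had 8.43 in P4H-TM KO and 8.42 in WT. Pecam1, a general marker of endothelium, was the lowest of the group, with 6.03 in P4H-TM KO and 6.06 in WT, both below the median signal. Apart from Cdh5 and Emcn, these junction genes differed by 0.11 or less on their brightest probe sets.

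The 5 receptor genes had a median of 0.09. Of these, 4 were higher in P4H-TM KO and 1 was equal, against 46.0% of all genes higher. Kdr, which encodes the principal signalling receptor for VEGF, had 8.55 in P4H-TM KO and 8.36 in WT. Tek, which encodes the angiopoietin receptor TIE2, also differed by 0.19, with 8.19 in P4H-TM KO and 8.0 in WT. Its orphan relative Tie1 had 4.54 in P4H-TM KO and 4.45 in WT, well below the median signal. Eng (endoglin, a coreceptor for TGF-beta family ligands) differed by 0.06 on its brighter and by −0.06 on its other probe set. Flt1, which encodes the VEGF receptor that acts largely as a decoy, was equal at 8.84 on its brightest probe set, and its other 3 differed by −0.03, −0.19 and 0.02. Both VEGF receptors were thus measured well above the median signal, and Flt1 showed no higher value where Kdr showed 0.19.

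Endothelial transcription factors were the one endothelial group with a median below 0, at −0.09. Erg, an ETS factor that maintains endothelial identity, had 6.64 in P4H-TM KO and 6.80 in WT, and its other probe set had 5.54 in P4H-TM KO and 5.76 in WT. Its difference of −0.16 was the lowest of all members. Sox17, a factor of arterial endothelium, had 8.07 in P4H-TM KO and 8.16 in WT, with −0.10 on its other probe set. Sox18, which acts in vessel and lymphatic development, was equal at 7.64 on both arrays. Erg and Sox17 were among the members whose probe sets all pointed the same way.

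Among the transporters, Slco1c1 stood apart from the other 3. It encodes OATP1C1, which carries thyroxine and is known in brain endothelium, choroid plexus epithelium and astrocytes. Slco1c1 had 11.31 in P4H-TM KO and 10.87 in WT on its only probe set, a difference of 0.44 or 1.36-fold. Counting Slco1c1 itself, 219 of the 18193 genes had a difference of at least this size in the same direction. The related organic anion carrier gene Slco1a4 differed by 0.07, with 10.26 in P4H-TM KO and 10.19 in WT. For the efflux pump genes the values were 9.21 in P4H-TM KO and 9.28 in WT for Abcb1a (P-glycoprotein), and 9.16 in P4H-TM KO and 9.15 in WT for Abcg2. The choroid plexus markers averaged 9.39 in P4H-TM KO and 7.89 in WT, and all 13 measured markers had higher values in P4H-TM KO. The astrocyte markers averaged 11.5 in P4H-TM KO and 11.6 in WT. The part of either cell type in the Slco1c1 difference was not tested.

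The remaining endothelial members lay within 0.07 of equality on their brightest probe sets. Nos3, the endothelial nitric oxide synthase gene, was the highest of them with 7.27 in P4H-TM KO and 7.20 in WT. Vwf, the gene of von Willebrand factor, had 7.12 in P4H-TM KO and 7.07 in WT. Pltp, which encodes a phospholipid transfer protein, differed by 0.06 and by −0.01 on its other probe set. Egfl7, which encodes a secreted endothelial matrix protein, had 9.12 in P4H-TM KO and 9.16 in WT. Its other 3 probe sets differed by 0.11, −0.02 and 0.01. The membrane protein gene Itm2a was equal at 11.72.

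Mural members of the contractile cytoskeleton included the largest differences of all 37 members. Acta2 had 10.32 in P4H-TM KO and 9.69 in WT on its brightest probe set, a difference of 0.63 or 1.55-fold, and 94 of the 18193 genes, Acta2 included, reached this size. The 2 other probe sets of Acta2 lay below the median signal, with 4.42 in P4H-TM KO and 4.11 in WT on one and 3.86 in P4H-TM KO and 3.79 in WT on the other. All 3 were thus higher in P4H-TM KO, although the suffix of the brightest, _s_at, marks a probe set that can match transcripts of more than 1 gene. Tpm2, which encodes beta-tropomyosin, had 8.44 in P4H-TM KO and 7.85 in WT on its brightest probe set, a difference of 0.59 that only just passed 1.5-fold, and the next lower member, Slco1c1, was at 0.44. The second brightest probe set of Tpm2 had 6.93 in P4H-TM KO and 6.64 in WT. Its dimmest probe sets, below the median signal, differed by −0.03 and −0.10. With each array centred on its own median, the Tpm2 difference was 0.58 and fell short of 1.5-fold.

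Tagln, which encodes the actin-binding protein transgelin, had 8.11 in P4H-TM KO and 7.74 in WT on its single probe set. Tagln lies on chromosome 9, which also carries P4htm, as do Cnn1 and Esam among the members, and the part of this position was not tested. Myh11, the smooth muscle myosin heavy chain gene, had 6.91 in P4H-TM KO and 6.56 in WT, with a difference of 0.28 on its dimmer probe set. Mylk, which encodes the kinase that activates smooth muscle myosin, differed less, with 9.28 in P4H-TM KO and 9.21 in WT. Its other probe sets differed by 0.03 and, below the median signal, by −0.23. Cnn1 (calponin, an actin-binding protein of mature smooth muscle) had 4.36 in P4H-TM KO and 4.29 in WT, below the median signal on both arrays. Des, the gene of the intermediate filament protein desmin, had 6.66 in P4H-TM KO and 6.74 in WT, with 0.25 on a dimmer probe set. The contractile members therefore divided into 4 with differences of 0.35 or more and 3 within 0.08 of equality on their brightest probe sets.

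**Figure D2:**
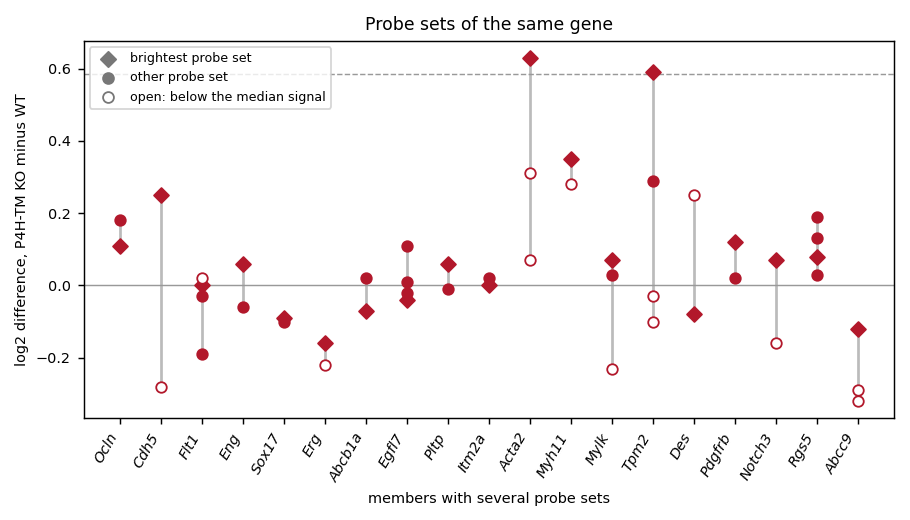
Log2 difference between P4H-TM KO and WT (vertical axis) on every probe set of the 19 members with more than 1, each pair of arrays giving 1 value without error bar. Diamonds are the brightest probe sets, open symbols lie below the median signal and the dashed line marks 1.5-fold; all symbols of Acta2, Myh11 and Rgs5 lie above 0 and all of Erg, Sox17 and Abcc9 below it, whereas those of Tpm2 reach from −0.10 to 0.59.

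Pericyte and receptor members lay closer to equality, between −0.12 and 0.15. Of the 7, 5 were higher in P4H-TM KO, against 46.0% of all genes. Ndufa4l2, a mitochondrial protein gene known both as a pericyte marker and as a target of hypoxia-inducible factor, was the highest with 6.56 in P4H-TM KO and 6.41 in WT. Pdgfrb had 9.46 in P4H-TM KO and 9.34 in WT, and its other probe set differed by 0.02. Rgs5, which encodes a regulator of G protein signalling abundant in pericytes, had 11.75 in P4H-TM KO and 11.67 in WT, and its 4 probe sets differed by 0.03 to 0.19. Notch3, the gene of the Notch receptor of mural cells, differed by 0.07 on the brighter and −0.16 on the dimmer probe set. Anpep, an aminopeptidase gene, had 4.80 in P4H-TM KO and 4.69 in WT, both below the median signal. Higd1b was equal at 7.16. Abcc9, which encodes the sulphonylurea receptor subunit of the pericyte potassium channel, was the lowest with 7.11 in P4H-TM KO and 7.23 in WT, and its dimmer probe sets differed by −0.32 and −0.29. Rgs5 and Abcc9, both known for pericytes, thus differed in opposite directions on all of their probe sets.

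Set side by side, the 23 endothelial members had a median difference of 0.06 and the 14 mural members one of 0.095. The endothelial minus mural median was −0.035. Of the endothelial members 15 were higher (65.2%) and 5 lower (21.7%) in P4H-TM KO. Of the mural members 11 were higher (78.6%) and 2 lower (14.3%). Over all genes the shares were 46.0% higher and 49.0% lower. The means lay further apart than the medians, at 0.07 for the endothelial and 0.17 for the mural members. This separation came from the contractile members, whose median was 0.35 and mean 0.29, against a median of 0.08 and a mean of 0.06 for the pericyte and receptor members. The contractile minus pericyte median of 0.27 was 0.12 with probe sets averaged. It was −0.005 once members also known in other cell types were left out, which removes Tagln and Tpm2 from the contractile and Anpep from the pericyte members.

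**Figure D3:**
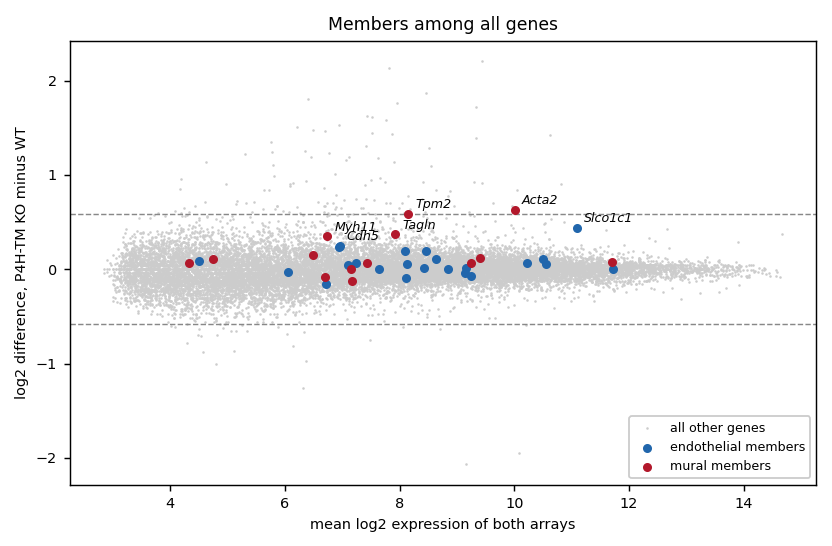
Mean log2 expression of both arrays (horizontal axis) against the log2 difference between P4H-TM KO and WT (vertical axis) for 18193 genes, with endothelial members in blue, mural members in red and all other genes in grey; 1 array per genotype. Dashed lines mark 1.5-fold, which Acta2 at 0.63 and Tpm2 at 0.59 exceed; the named members differ by at least 0.25 and none of the labelled ones lies below 0.

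Meningeal fibroblast markers also had higher values in P4H-TM KO. Of these 15 markers 14 did so, 7 at least 1.5-fold, and their median difference was 0.41. They averaged 8.31 in P4H-TM KO, with single markers between 5.94 and 11.27, and 7.79 in WT, with single markers between 5.30 and 10.37. Dcn, the proteoglycan gene decorin, had 11.27 in P4H-TM KO and 10.37 in WT on its brightest probe set. The other probe set of Dcn differed by 0.1. The meninges carry arteries with their own smooth muscle. The part of meningeal tissue in the differences of Acta2, Tpm2, Tagln and Myh11 was not tested. Choroid plexus markers had a median of 1.58, and their single markers ran from 6.84 to 14.86 in P4H-TM KO and from 5.90 to 14.49 in WT. Plvap, which marks the fenestrated capillaries of tissues such as the choroid plexus, had 8.04 in P4H-TM KO and 8.05 in WT. Blood cell markers had a median of −0.69, with 5 of 7 lower in P4H-TM KO, and 1 of the 7 above the median signal. The one above it, Hbb-b2, a beta globin gene, had 6.54 in P4H-TM KO and 6.76 in WT. Macrophage markers of the brain borders had a median of 0.05, microglial markers one of −0.03 and oligodendrocyte markers one of −0.29.

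**Figure D4:**
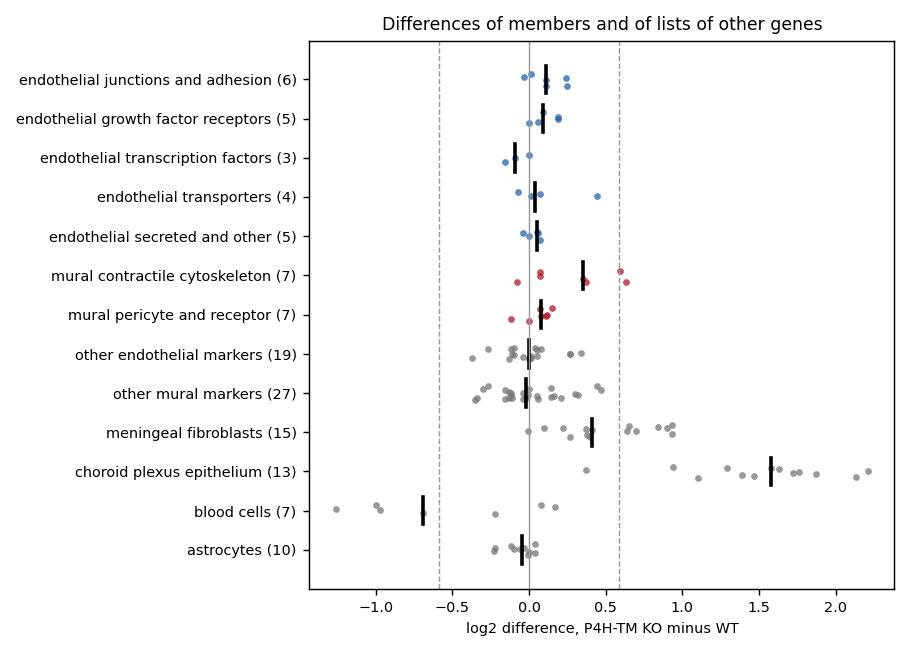
Log2 difference between P4H-TM KO and WT (horizontal axis), 1 point per measured gene on its brightest probe set, with the number of genes in brackets, for endothelial members (blue), mural members (red) and lists of other genes (grey). Black bars are medians and dashed lines mark 1.5-fold, without error bars as there is 1 array per genotype; the contractile median of 0.35 and the meningeal fibroblast median of 0.41 lie to the right of the other vascular lists, and the choroid plexus median is 1.58.

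Genes that work with the members in the same pathways were described from lists of general knowledge. Of 24 ligand genes of the vessel wall, 19 were higher and 4 lower in P4H-TM KO, with a median of 0.075. Of all genes 46.0% were higher and 49.0% lower. Vegfd, which encodes a VEGF family ligand, was 1.64-fold higher, with 6.93 in P4H-TM KO and 6.22 in WT, and its 3 probe sets differed by 0.34 to 0.79. Vegfa, the main ligand of Kdr and Flt1, had 8.58 in P4H-TM KO and 8.67 in WT, with 0.19 on its other probe set. Pdgfb had 7.68 in P4H-TM KO and 7.50 in WT. Wnt7a, which encodes a ligand for barrier formation, had 8.11 in P4H-TM KO and 7.73 in WT, and its 3 probe sets differed by 0.06 to 0.38. The lowest above the median signal were the Norrin gene Ndp, at −0.22, and the apelin gene Apln, at −0.21. Among 22 measured receptors and cofactors, 16 were higher and 5 lower, against the same shares of all genes, with a median of 0.065. Adgra2, which encodes the Wnt7 coreceptor GPR124, had 7.10 in P4H-TM KO and 6.62 in WT, and Fzd4, a Wnt and Norrin receptor gene, had 7.52 in P4H-TM KO and 7.11 in WT. Another probe set of Fzd4 differed by −0.15. Tspan12, which encodes a coreceptor for Norrin, had the lowest difference above the median signal, −0.14.

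Further genes of barrier transport and junctions were evenly divided, with 12 higher and 10 lower of 22 measured and a median of 0.03. Carrier genes were found among both the higher and the lower ones. Mfsd2a, which encodes a lipid carrier of brain endothelium, had 8.87 in P4H-TM KO and 9.14 in WT. Tfrc, the transferrin receptor gene, had 11.18 in P4H-TM KO and 11.44 in WT, and its 3 probe sets differed by −0.29 to −0.09. Cgn, which encodes the tight junction protein cingulin, was the highest with 6.72 in P4H-TM KO and 6.22 in WT, but differed by −0.13 on its other probe set. Slc38a5, an amino acid carrier gene, had 7.20 in P4H-TM KO and 6.96 in WT.

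Other markers of the same cells did not lean toward higher values as the members did. Of 19 measured endothelial markers outside the members, 9 were higher and 8 lower in P4H-TM KO, with a median of 0.00. Cd93, which encodes an endothelial lectin-like receptor, differed by 0.34, with −0.10 to 0.38 over its 5 probe sets. Ctla2a, which encodes a cysteine protease inhibitor, had 7.84 in P4H-TM KO and 8.21 in WT. Of 27 other mural markers 10 were higher and 16 lower, with a median of −0.02, so that more were lower than higher. Shares over all genes were 46.0% higher and 49.0% lower. Myl9, the smooth muscle myosin light chain gene, had 8.79 in P4H-TM KO and 8.35 in WT. Other contractile genes of this list differed in both directions, as with Cald1 at 0.14 and Tpm1 at −0.04 on their brightest probe sets. The 5 probe sets of Cald1 differed by −0.03 to 0.36 and the 4 of Tpm1 by −0.04 to 0.15. Vtn, the vitronectin gene, known as a pericyte marker, had 10.24 in P4H-TM KO and 10.03 in WT. Mcam, an adhesion molecule gene of mural and endothelial cells, had 7.95 in P4H-TM KO and 8.30 in WT. None of these endothelial or mural genes reached 1.5-fold in either direction.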

How the data were processed

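Cortical RNA of 4 pooled mice per genotype was hybridized to Affymetrix whole-genome mouse expression arrays. Scans were quantified by the authors in the GeneChip Operating System, followed by normalization in GenePattern. RMA is named in the submitters' processing notes, and its version is not given in the sources used here. The deposited values are log2 expression with 2 decimals, between 2.69 and 14.91, with a median of 6.39 for P4H-TM KO and 6.38 for WT. RMA normalizes between arrays and can compress true differences of dim probe sets. Their measured differences are also noisy. The pooled SD between probe sets of 1 gene was 0.147 with dim ones included and 0.101 without. The number of arrays limits the precision.

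Of 45101 probe sets, 64 are controls. Without controls, 34945 carry 1 symbol in the platform annotation, 932 several and 9160 none. Each of 18193 genes took its probe set with the highest mean. The signal filter was the median of all probe sets, 6.385. Members and lists were chosen with earlier results of these data known. The rule for named genes asked for values of members differing by at least 0.25 and of the highest and lowest of each role group, and the remaining measured members were also given so that each is accounted for. Pathway lists were described by counts and up to 2 genes at each end above the filter. Vegfa, Pdgfb, Plvap, Dcn, Hbb-b2, Cald1 and Tpm1 were named outside this rule for their roles, with values known. No test was possible with 1 array per genotype. The code of the summaries was run on simulated arrays with known shifts and noise smaller than the spread between probe sets. That run checks the calculation only and not the precision of the measured differences. Alternatives were averaged probe sets, removal of probe sets ending in _x_at or _s_at, centred arrays, removal of the intensity trend by loess with a span of 0.3, the signal filter, other folds, means, and removal of 8 members known in other cells. Averaging only probe sets above the filter was added after the data were seen, as were the alternatives run on the contractile and pericyte medians and on counts of members higher or lower at any size. Calculations were done with pandas 2.3.3 and numpy 2.4.6 in Python 3.11.15, the loess with statsmodels 0.14.6, and plots with matplotlib 3.10.9.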

Additional observations from a re-analysis of the deposited data

How the results depend on the processing

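With 1 array per genotype, every value rests on 2 arrays, and leaving out either leaves no comparison. No paired analysis was possible because each genotype is represented by 1 array. Of 80 alternatives to medians and counts, 62 stayed within the spread between probe sets, scaled by the number of genes, or within 1.5 times the count. Some of these could not leave that range. Centring lowers each difference by 0.01, and a count of 0 members 1.5-fold lower stays 0 at 2-fold. With probe sets averaged, the endothelial median (0.06) was 0.015, the contractile median (0.35) 0.1875, the contractile minus pericyte median (0.27) 0.1175 and the count of members 1.5-fold higher (2) was 0. With only probe sets above the filter averaged, the endothelial median was 0.025 and that count 1. As means, the mural value was 0.1721, the endothelial minus mural value −0.1043 and the contractile value 0.2857. Without members known in other cells the contractile median was 0.07, the contractile minus pericyte median −0.005, with a turned sign, and the count 1. The count was also 1 without _x_at and _s_at probe sets, 1 with centred arrays and 1 with the intensity trend removed, 5 at a log2 threshold of 0.32 and 0 at 2-fold. Members lower at any size numbered 11 with centred arrays, where the main count was 7, because centring lowers each difference by 0.01 and turns the members at equality. For the remaining shifts, the cause was not tested. Single members stayed within 0.147 in 176 of 185 alternatives. Many of these could not move further, because centring lowers each difference by 0.01. Averaging or removal of probe sets also leaves the 18 members with 1 probe set unchanged. Acta2 was 0.31 without its _s_at probe set, and Notch3 and Abcc9 were −0.16 and −0.32.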

Other observations

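Genes that mark segments of the vessel tree were described by segment. Of 10 arterial endothelial genes 6 were higher and 4 lower in P4H-TM KO, with a median of 0.035. Fbln5, the gene of the elastic fibre protein fibulin-5, was the highest with 7.66 in P4H-TM KO and 7.01 in WT, and with a difference of 0.16 on its other probe set. Unc5b, which encodes a netrin receptor of arterial endothelium, had 8.35 in P4H-TM KO and 8.57 in WT. Of 8 venous endothelial genes 5 were higher and 3 lower. Their median was 0.065, or 0.24 over the 5 above the median signal. Shares over all genes were 46.0% higher and 49.0% lower. Nr2f2, which encodes the venous fate factor COUP-TFII, had 9.91 in P4H-TM KO and 9.40 in WT, and its 6 probe sets differed by −0.06 to 0.65. Vcam1, an adhesion molecule gene, had 9.49 in P4H-TM KO and 9.14 in WT, and its 3 probe sets differed by 0.01 to 0.35. Ackr1, the lowest venous gene above the median signal, had 9.74 in P4H-TM KO and 9.81 in WT. The other lower venous genes lay below the median signal, 1 of them at least 1.5-fold lower. Fbln5, Nr2f2 and Vcam1 are also expressed outside endothelium, and the part of other cells in these values was not tested.

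Targets of hypoxia-inducible factor had a median difference of 0.01, with 9 higher and 7 lower of 18 measured, and none reached 1.5-fold. P4ha1, a collagen prolyl 4-hydroxylase gene, had 9.30 in P4H-TM KO and 9.07 in WT. Ankrd37 had 6.90 in P4H-TM KO and 7.23 in WT. Slc2a1, which encodes the glucose transporter GLUT1 of the barrier endothelium, had 11.56 in P4H-TM KO and 11.75 in WT, and its 3 probe sets differed by −0.20 to −0.08.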
